A study of Mus musculus with 15 samples.

Results

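The genes described here act in the synthesis, conjugation and transport of bile acids in the hepatocyte, or in the control of these steps. They are the cytochromes P450 Cyp7a1, Cyp8b1 and Cyp27a1, the ring-reducing enzymes Akr1d1 and Akr1c6, the conjugating enzymes Slc27a5 and Baat, the transporters Slc10a1 and Abcb11, and the nuclear receptor Nr0b2. They were taken by gene symbol from the arrays, which gave 12 probes for 10 of the 27554 genes tested. Slc10a1 and Slc27a5 had a second probe each, and the probe with the highest mean signal stood for the gene. All 10 genes were well above background on all 15 arrays, so none was lost to the filter on dim probes.

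Liver RNA of newborn mice was measured on postnatal day 1, with 1 single-colour Agilent array per pup. The hypoglycemic KO group (n = 7) and the normoglycemic KO group (n = 3) had received from their mother a chromosome without the miR-379/miR-410 microRNA cluster, and their wild-type littermates (n = 5) were the control. All 3 groups were C57BL/6J pups from natural deliveries, with their parents on standard chow. The deletion is present in every cell of the body and not in the liver alone. The KO pups were divided by blood glucose, which was 9 to 33 mg/dl in hypoglycemic KO, 44 to 56 mg/dl in normoglycemic KO and 50 to 72 mg/dl in wild-type pups. The design text describes the normoglycemic KO pups as mildly hypoglycemic. Since glucose defined the KO groups, a difference between them cannot be told apart from other differences that go with glucose.

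A level is the log2 of a probe's background-corrected signal over the 75th percentile of its array, so a level of 0 equals that percentile and a difference of 1 is a 2-fold change. The 75th percentile lay between 663 and 912 signal units, and 57.9% to 76.2% of the spots were well above background. The 2 slides held 4 hypoglycemic KO, 2 normoglycemic KO and 2 wild-type arrays (slide 1), and 3, 1 and 3 arrays (slide 2). Mirg, a non-coding transcript of the cluster's region, served to check the deletion. Its brighter probe lay between -3.02 and -1.23 in 9 of the 10 KO libraries and between 0.88 and 1.60 in wild type, but it stood at 0.66 in the library labelled hypoglycemic KO replicate 2. That library goes against its label in this measure, and the results it moves most are given with and without it. Hepatocyte markers were high in every library (8 of 8 measured, mean level 8.94 to 9.15 in hypoglycemic KO, 9.07 to 9.20 in normoglycemic KO and 8.91 to 9.31 in wild type). Of these 8 markers, 7 had a hypoglycemic KO mean below the wild-type mean, and 6 had a normoglycemic KO mean below it. Their part in the results was not tested. Pancreatic acinar markers (9 of 10 measured, Pnlip not above background) ranged in mean level from -3.01 to 2.79 in hypoglycemic KO, from -2.47 to 5.77 in normoglycemic KO and from -2.66 to 2.73 in wild type. They were highest in normoglycemic KO replicate 2, hypoglycemic KO replicate 3 and wild type replicate 2. In whole liver, fewer cells of a type and less RNA per cell cannot be told apart. The Y-linked gene Ddx3y had a level above 0 in 2 of 7 hypoglycemic KO, 2 of 3 normoglycemic KO and 1 of 5 wild-type libraries, so the sexes were not evenly spread.

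Bile acids are made from cholesterol in hepatocytes. In the classical route Cyp7a1 adds the first hydroxyl group and sets the pace, Cyp8b1 directs the product towards cholic acid, and Cyp27a1 oxidises the side chain and also opens an alternative route. Akr1d1 and then an Akr1c enzyme reduce the steroid ring. Slc27a5 joins the acid to coenzyme A, Baat exchanges the coenzyme for taurine or glycine, Abcb11 exports the conjugate into bile, and Slc10a1 takes it back up from portal blood. Nr0b2, the small heterodimer partner, is induced by the bile acid receptor Nr1h4 and represses Cyp7a1 and Cyp8b1.

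The probe sequences matter for 2 of these genes. The Slc10a1 probes are shown because the brighter one reads, in its first 30 bases, as the letters of a mouse B1 repeat, a short interspersed element present throughout the genome. It shared a run of 15 bases or more with 24 other probes of the array and with 68 of 32851 RefSeq promoter windows, whereas the dimmer probe shared one with 0 other probes and 1 window. Both lie on the minus strand of chromosome 12 (mm9), the brighter at chr12:82056539-82056598 and the dimmer at chr12:82061470-82061529.
Slc10a1 brighter probe: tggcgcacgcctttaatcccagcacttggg
Slc10a1 dimmer probe: cctacaaaggcattatgttatcactcgtca

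The Akr1c6 probe is shown beside that of its paralog Akr1c20 because the genes of a paralogous family can share sequence. The capitals mark the longest run of bases that both 60-base probes hold, which is 11 bases long. After an extra a in the Akr1c20 probe, both go on with the letters tggaggtcc, so the likeness is longer than the marked run. Shown are bases 1 to 30 of the Akr1c6 probe and bases 30 to 59 of the Akr1c20 probe. The Akr1c6 probe lies at chr13:4456428-4456487 on the plus strand and the Akr1c20 probe at chr13:4486408-4486467 on the minus strand (mm9).
Akr1c6 probe: TGAATACTAACtggaggtccattttgtgcc
Akr1c20 probe: TGAATACTAACatggaggtccctgtcatgc

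The livers of hypoglycemic KO pups differed from wild type in 8 of the 10 genes at an unadjusted limma p under 0.05. The levels of Akr1d1, Akr1c6, Slc27a5, Baat, Abcb11 and Nr0b2 averaged lower, and those of Cyp8b1 and Cyp27a1 higher. Of all genes tested, 8.97% were lower and 9.69% were higher by the same rule. The members were chosen with earlier results of these data known, so counts over them describe the list and are no independent test. None of the 10 passed the limma test with Benjamini-Hochberg adjustment over all genes, which called 5 genes in all (0.0181%). The median difference was -0.58 over the 10 genes and 0.02 over all genes, and 7 of the 10 lay below 0. No member separated the 2 groups without overlap, which 0.751% of all genes did on the lower side and 0.711% on the higher side.

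Normoglycemic KO livers differed from wild type in 1 of the 10 genes at an unadjusted p under 0.05, Slc27a5, which was lower (1.72% of all genes were lower by this rule and 3.07% higher). The adjusted test called 0 members and 0 genes (0%). In Slc27a5 and Nr0b2 the normoglycemic KO levels all lay below all wild-type levels, which 1.54% of all genes did. The median difference was -0.08 over the 10 genes and 0.01 over all genes.

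Hypoglycemic KO livers set against normoglycemic KO livers had 4 of the 10 genes lower (Akr1d1, Akr1c6, Baat and Abcb11) and 1 higher (Cyp27a1) at an unadjusted p under 0.05, against 9.97% and 9.36% of all genes. The adjusted test called 0 members and 15 genes in all (0.0544%). Akr1d1 and Abcb11 separated the groups without overlap, as did 3.96% of all genes on the lower side. The median difference was -0.31 over the 10 genes and -0.01 over all genes. In the counts and medians of all 3 comparisons, Slc10a1 was taken by its brighter probe, the one that reads as a B1 repeat. By its dimmer probe, hypoglycemic KO differed from normoglycemic KO by -0.36, with an unadjusted limma p of 0.0431. The 3 comparisons share their groups, so the values of 1 comparison are no independent check of another.

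**Figure D1:**
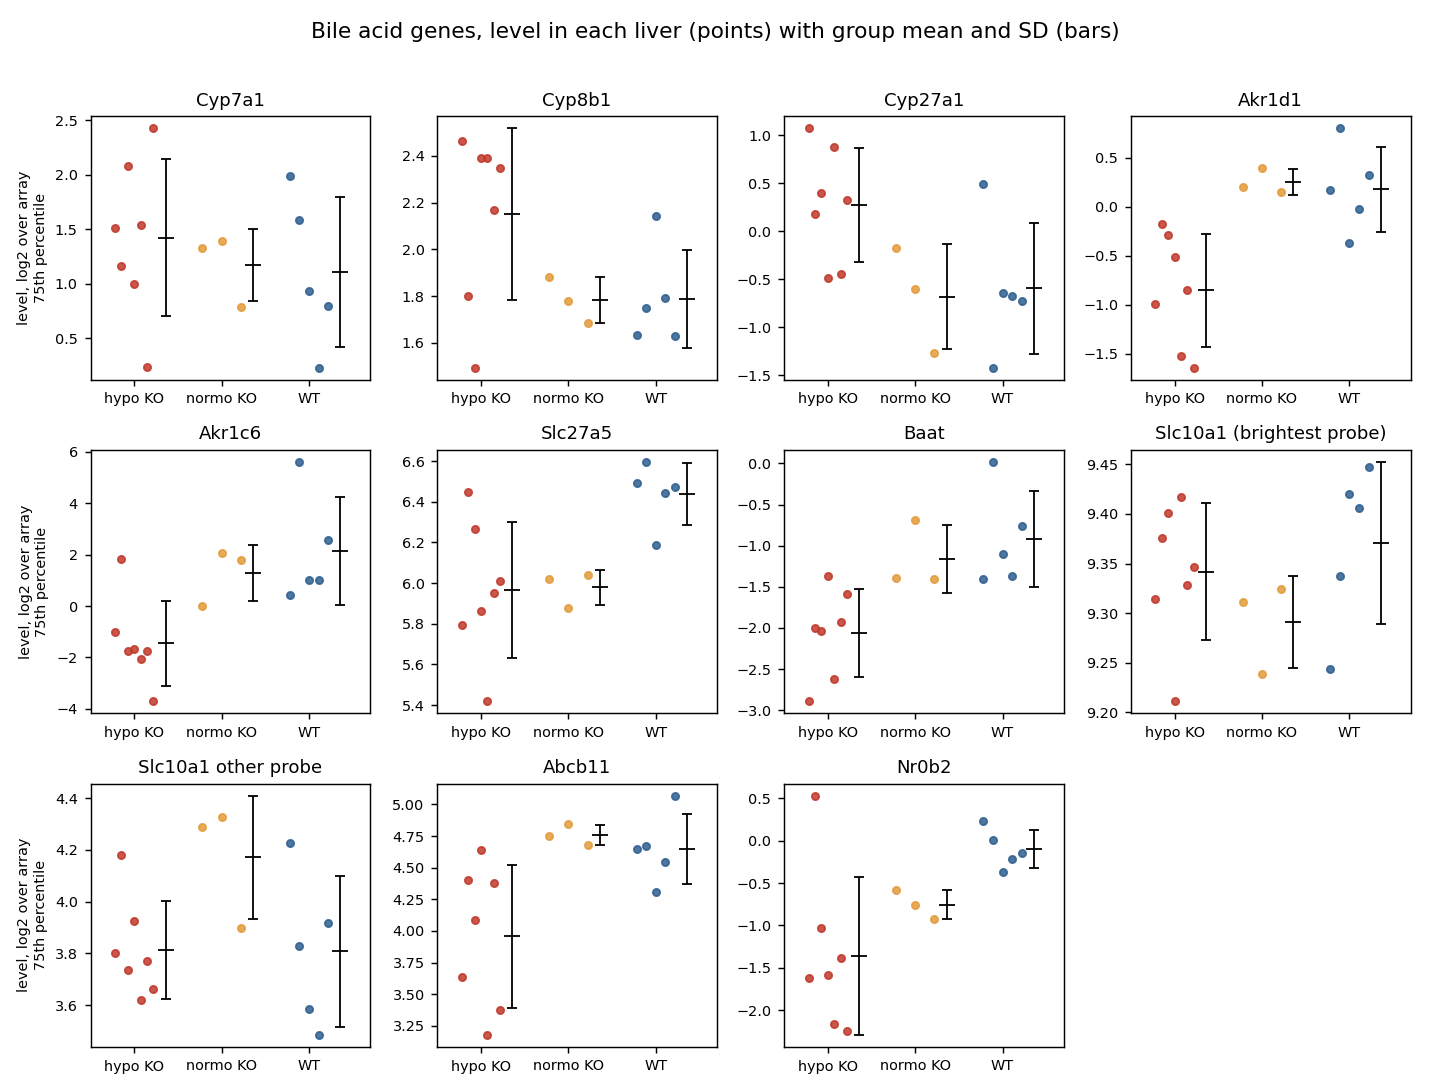
Level of each bile acid gene in each liver (y axis, log2 over the array's 75th percentile, a separate scale per panel) in hypoglycemic KO, normoglycemic KO and wild-type pups from left to right; bars give the group mean and SD. Akr1d1, Akr1c6, Baat, Abcb11 and Nr0b2 lie lower in most hypoglycemic KO livers, while the points of the brighter Slc10a1 probe stay between 9.21 and 9.45.

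The hydroxylating enzymes averaged level or higher in hypoglycemic KO livers. Cyp7a1, the rate-limiting enzyme (probe at chr4:6193456-6193515, minus strand, mm9), ranged from 0.23 to 2.43 with a median of 1.51 in hypoglycemic KO. It had levels of 1.33, 1.39 and 0.79 in normoglycemic KO and of 1.99, 1.58, 0.94, 0.23 and 0.80 in wild type. The groups overlapped over nearly their whole range. The difference from wild type was 0.32 in hypoglycemic KO (95% interval -0.46 to 1.10, limma adjusted p = 0.672) and 0.06 in normoglycemic KO (-0.91 to 1.04, adjusted p = 0.999). The intervals leave room for a change of more than 2-fold in hypoglycemic KO.

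Cyp8b1, the sterol 12-alpha-hydroxylase (chr9:121824595-121824654, minus strand, mm9), ranged from 1.49 to 2.46 with a median of 2.35 in hypoglycemic KO. Its levels were 1.88, 1.78 and 1.69 in normoglycemic KO and 1.63, 1.75, 2.14, 1.79 and 1.63 in wild type. The hypoglycemic KO livers included both the highest values and the lowest one. The mean was 0.36 higher in hypoglycemic KO than in wild type (95% interval 0.01 to 0.71, limma adjusted p = 0.255), and the normoglycemic KO mean differed from wild type by -0.01 (-0.45 to 0.43).

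Cyp27a1, the mitochondrial sterol 27-hydroxylase (chr1:74782203-74782262, plus strand, mm9), ranged from -0.49 to 1.07 with a median of 0.32 in hypoglycemic KO. It had levels of -0.17, -0.61 and -1.27 in normoglycemic KO and of 0.49, -1.42, -0.64, -0.67 and -0.73 in wild type. All 7 hypoglycemic KO levels lay above the wild-type mean, but wild type replicate 1 stood among them. The mean was 1.83-fold higher in hypoglycemic KO than in wild type (difference 0.87, 95% interval 0.14 to 1.60, limma adjusted p = 0.193). Against normoglycemic KO the difference was 0.95 (0.09 to 1.82, adjusted p = 0.215).

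Both ring-reducing enzymes had lower means in hypoglycemic KO livers. Akr1d1, the 5-beta-reductase (chr6:37518113-37518172, plus strand, mm9), ranged from -1.64 to -0.18 with a median of -0.85 in hypoglycemic KO. Its levels were 0.20, 0.40 and 0.15 in normoglycemic KO and 0.17, 0.80, -0.37, -0.02 and 0.32 in wild type. All hypoglycemic KO livers were below all normoglycemic KO livers, and only wild type replicate 3 overlapped with them. The difference from wild type was -1.03 in hypoglycemic KO (95% interval -1.60 to -0.46, limma adjusted p = 0.098) and 0.07 in normoglycemic KO (-0.64 to 0.78, adjusted p = 0.999). Between hypoglycemic and normoglycemic KO the difference was -1.10 (-1.77 to -0.43, adjusted p = 0.109).

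Akr1c6 encodes a hydroxysteroid dehydrogenase of the liver and had the widest range of the 10 genes. It ranged from -3.71 to 1.81 with a median of -1.75 in hypoglycemic KO. The levels were 0.02, 2.06 and 1.79 in normoglycemic KO and 0.43, 5.61, 1.02, 1.02 and 2.58 in wild type. The highest hypoglycemic KO value, 1.81, was that of the library labelled hypoglycemic KO replicate 2, and the highest wild-type value was that of replicate 2, one of the libraries highest in acinar markers. The mean was 12.0-fold lower in hypoglycemic KO than in wild type (difference -3.58, 95% interval -5.63 to -1.53, limma adjusted p = 0.103). It was -4.12 without the library labelled hypoglycemic KO replicate 2 (adjusted p = 0.0505) and -2.71 without wild type replicate 2 (adjusted p = 0.232). Each of these libraries held the highest value of its group, so leaving it out moves the difference by construction. Without the 3 libraries highest in acinar markers the difference was -2.66. The normoglycemic KO mean differed from wild type by -0.85 (-3.40 to 1.71, adjusted p = 0.98), and the hypoglycemic KO mean from the normoglycemic KO mean by -2.73 (-5.15 to -0.32, adjusted p = 0.206). Between the KO groups it was -3.28 without the library labelled hypoglycemic KO replicate 2 (adjusted p = 0.125).

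Of the conjugating enzymes, Slc27a5 averaged about equally low in both KO groups, whereas Baat was lowest in hypoglycemic KO. Slc27a5, the bile acid coenzyme A ligase (chr7:13573701-13573760, minus strand, mm9), ranged from 5.42 to 6.45 with a median of 5.95 in hypoglycemic KO. It stood at 6.02, 5.88 and 6.04 in normoglycemic KO and at 6.49, 6.60, 6.19, 6.44 and 6.47 in wild type. The normoglycemic KO livers lay below all wild-type livers, and 2 hypoglycemic KO livers reached into the wild-type range. The difference from wild type was -0.47 in hypoglycemic KO (95% interval -0.78 to -0.16, limma adjusted p = 0.125) and -0.46 in normoglycemic KO (-0.85 to -0.07, adjusted p = 0.965). The second probe (chr7:13573924-13573983) gave -0.46 (adjusted p = 0.128) and -0.41 (adjusted p = 0.965) for the same comparisons. The KO groups differed from each other by -0.01 (-0.38 to 0.35).

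Baat, the amino acid N-acyltransferase (chr4:49502933-49502992, minus strand, mm9), ranged from -2.89 to -1.37 with a median of -2.0 in hypoglycemic KO. Its levels were -1.40, -0.69 and -1.40 in normoglycemic KO and -1.41, 0.02, -1.10, -1.36 and -0.76 in wild type. All 7 hypoglycemic KO levels lay below the wild-type mean, and 1 of them overlapped with the wild-type range. The mean was 2.20-fold lower in hypoglycemic KO than in wild type (difference -1.14, 95% interval -1.77 to -0.51, limma adjusted p = 0.0991). Without hypoglycemic KO replicate 4, the highest of its group, the difference was -1.26 and the limma adjusted p 0.049. This was 1 of 31 alternatives and the only one in which Baat passed in this comparison. Leaving out the highest value of the lower group widens the difference by construction. The count over all genes in that fit is not given here. Normoglycemic KO differed from wild type by -0.24 (-1.03 to 0.55, adjusted p = 0.984), and hypoglycemic KO from normoglycemic KO by -0.90 (-1.65 to -0.15, adjusted p = 0.181).

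The uptake transporter Slc10a1 gave different pictures by its probes, whose sequences are printed above. The brighter one lay between 9.21 and 9.42 in hypoglycemic KO, with a median of 9.35. It stood at 9.31, 9.24 and 9.32 in normoglycemic KO and at 9.24, 9.34, 9.42, 9.41 and 9.45 in wild type. The spread over all livers was narrow, and the groups overlapped. The difference from wild type was -0.03 in hypoglycemic KO (95% interval -0.15 to 0.10, limma adjusted p = 0.828) and -0.08 in normoglycemic KO (-0.24 to 0.08, adjusted p = 0.975).

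The dimmer Slc10a1 probe ranged from 3.62 to 4.18 with a median of 3.77 in hypoglycemic KO. It stood at 4.29, 4.33 and 3.90 in normoglycemic KO and at 4.23, 3.83, 3.58, 3.48 and 3.92 in wild type. Of the 3 normoglycemic KO livers, 2 were the highest of all 15, and the third lay within the wild-type range. The difference from wild type was 0.01 in hypoglycemic KO (95% interval -0.29 to 0.30, limma adjusted p = 0.987) and 0.36 in normoglycemic KO (-0.0015 to 0.73, adjusted p = 0.965). The KO groups differed by -0.36 on this probe (-0.70 to -0.01, adjusted p = 0.242) and by 0.05 on the brighter one (-0.10 to 0.20, adjusted p = 0.725). Which transcripts the brighter probe reports was not tested.

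Abcb11, the bile salt export pump (chr2:69076365-69076424, minus strand, mm9), ranged from 3.18 to 4.64 with a median of 4.09 in hypoglycemic KO. Its levels were 4.75, 4.84 and 4.68 in normoglycemic KO and 4.64, 4.67, 4.31, 4.55 and 5.07 in wild type. All hypoglycemic KO livers were below all normoglycemic KO livers and below the wild-type mean. The mean was 1.61-fold lower in hypoglycemic KO than in wild type (difference -0.69, 95% interval -1.20 to -0.18, limma adjusted p = 0.154) and differed by 0.11 in normoglycemic KO (-0.53 to 0.75, adjusted p = 0.997). Between the KO groups the difference was -0.80 (-1.40 to -0.20, adjusted p = 0.153).

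Nr0b2, the repressor of the synthesis genes (chr4:133109694-133109753, plus strand, mm9), ranged from -2.25 to 0.53 with a median of -1.59 in hypoglycemic KO. It stood at -0.58, -0.76 and -0.92 in normoglycemic KO and at 0.23, 0.01, -0.37, -0.22 and -0.14 in wild type. The value of 0.53 belonged to the library labelled hypoglycemic KO replicate 2 and was the highest of all 15, and the other 9 KO libraries lay below all wild-type libraries. The mean was 2.40-fold lower in hypoglycemic KO than in wild type (difference -1.26, 95% interval -2.06 to -0.46, limma adjusted p = 0.119). Without the library labelled hypoglycemic KO replicate 2 the difference was -1.58 and passed the test (adjusted p = 0.00597), in a fit that called 138 genes (0.501%). Here, too, leaving out the highest value of the lower group widens the difference by construction. The normoglycemic KO mean differed from wild type by -0.66 (-1.65 to 0.34, adjusted p = 0.965) and the hypoglycemic KO mean from it by -0.60 (-1.55 to 0.34, adjusted p = 0.474). Between the KO groups the Nr0b2 difference was -0.92 without the library labelled hypoglycemic KO replicate 2 (adjusted p = 0.107), -0.16 with the replicate number as a block (adjusted p = 0.864), -0.26 within slide 1 and -1.01 within slide 2.

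The promoters of Nr0b2 and Abcb11 are shown because Nr1h4 and Nr5a2 are known to act on them. The windows are those of RefSeq (GRCm38.p6) upstream of the start of transcription, Nr0b2 at chr4:133553126-133553375 on the plus strand and Abcb11 at chr2:69342617-69342866 on the minus strand. Motifs were searched on both strands of 32851 promoter windows, of which 8 belonged to 7 of the 10 genes. CAAGGTCA, the extended half-site of Nr5a2, was in 0 of the 8 and in 1.33% of all. The inverted repeat bound by Nr1h4, the glucocorticoid receptor element and the Hnf1 element were in 0 of the 8 as well. Each was searched in its full palindromic form. They stood in only 2, 3 and 3 of all 32851 windows (0.0061%, 0.0091% and 0.0091%), so 0 of 8 cannot show that such sites are absent. The capitals mark 2 shorter motifs that were chosen after the sequences were read and overlap in part with the first 2. TCAAGG stood 68 and 35 bases before the Nr0b2 start and occurs in 12.5% of all promoters, with 2 or more matches in 0.922%. It was in 2 of the 8 windows, those of Nr0b2 and Akr1d1. A match of CANTGACCT stood 59 bases before the Abcb11 start, in 1 of the 8 windows, and occurs in 1.02% of all. A match describes the letters and not a bound site.
Nr0b2 promoter: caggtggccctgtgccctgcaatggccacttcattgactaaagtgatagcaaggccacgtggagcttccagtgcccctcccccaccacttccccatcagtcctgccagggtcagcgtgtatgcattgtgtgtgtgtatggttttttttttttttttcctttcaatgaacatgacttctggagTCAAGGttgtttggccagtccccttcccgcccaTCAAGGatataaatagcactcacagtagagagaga
Abcb11 promoter: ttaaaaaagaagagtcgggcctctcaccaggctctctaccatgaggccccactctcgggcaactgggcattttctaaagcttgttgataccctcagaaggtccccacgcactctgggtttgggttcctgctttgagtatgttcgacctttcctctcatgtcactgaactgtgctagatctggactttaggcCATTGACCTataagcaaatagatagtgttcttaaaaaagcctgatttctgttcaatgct

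The library labelled hypoglycemic KO replicate 2 and wild type replicate 2 decided several of these values. Wild type replicate 2 was the highest of all 15 libraries in 4 of the 10 genes, and hypoglycemic KO replicate 7 the lowest in 3. Without the library labelled hypoglycemic KO replicate 2, the same 6 genes were lower at an unadjusted p under 0.05 (8.86% of all genes), and Akr1c6 and Nr0b2 separated hypoglycemic KO from wild type without overlap (1.49% of all genes on the lower side and 1.32% on the higher side). Without wild type replicate 2 the same 6 genes were again lower (7.18% of all genes), 0 members separated the groups (1.02% of all genes on the lower and 0.849% on the higher side), and the adjusted test called 0 members and 1 gene in all (0.00363%).

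The differences were also taken within each slide. Slide 1 held 4 hypoglycemic KO and 2 wild-type arrays, and slide 2 held 3 of each. These arrays are part of the main fit, so the slides are no independent check of it. Within slide 1 the hypoglycemic KO minus wild-type difference was -0.97 for Akr1d1, -3.67 for Akr1c6, -1.38 for Baat, -0.45 for Slc27a5, -0.47 for Abcb11 and -1.05 for Nr0b2. Within slide 2 it was -1.31 for Akr1d1, -4.06 for Akr1c6, -0.97 for Baat, -0.57 for Slc27a5, -1.0 for Abcb11 and -1.69 for Nr0b2. Cyp27a1 differed by 0.76 and 0.93 and Cyp8b1 by 0.34 and 0.45 on slides 1 and 2. The sign was the same on both slides for these 8 genes. Cyp7a1 turned, with -0.34 on slide 1 and 0.75 on slide 2, and so did the brighter Slc10a1 probe, with 0.03 and -0.06. With the slide as a block 0 of the 10 genes passed, the smallest limma adjusted p being 0.0786 for Akr1d1.

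Blood glucose was next set against the levels within the groups, as a common slope in log2 per 10 mg/dl over the 15 pups. Baat had a slope of 0.53 ± 0.08 (SE), which missed the threshold after adjustment over all genes (limma adjusted p = 0.0541). Cyp27a1 had a slope of -0.46 ± 0.14 (adjusted p = 0.122). The other 8 genes had slopes between -0.12 and 0.49. Of all genes, 8.11% had a positive and 9.97% a negative slope at an unadjusted p under 0.05, and 0 passed the adjusted test (0%).

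Within the 7 hypoglycemic KO pups, the largest group, the pup with the lowest glucose had the lowest Baat level and the pup with the highest glucose the highest. At 9, 12, 14, 16, 26, 29 and 33 mg/dl the Baat level was -2.89, -2.04, -2.62, -2.0, -1.93, -1.59 and -1.37. The Pearson r was 0.87 (exact permutation p = 0.00774, adjusted p = 0.383 over the 27024 genes correlated) and the Spearman rho was 0.96 (exact permutation p = 0.00278, adjusted p = 0.559). Without the 2 pups farthest from the median glucose, at 33 and 29 mg/dl, r was 0.67 over 5 pups. In the other groups the Baat level was -1.40, -1.40 and -0.69 at 44, 44 and 56 mg/dl in normoglycemic KO, and -1.10, -1.41, -1.36, -0.76 and 0.02 at 50, 51, 55, 65 and 72 mg/dl in wild type. In each of these groups, too, the pup with the most glucose had the highest level. These pups, normoglycemic KO replicate 2 and wild type replicate 2, are among the 3 libraries highest in acinar markers, with mean levels of 5.77 and 2.73. Without wild type replicate 2 the common slope of Baat was 0.48 and its limma adjusted p 0.162, and the part of the acinar signal was not tested. A slope fitted in this group alone had an unadjusted limma p under 0.05 in Baat (positive) and Cyp27a1 (negative), as in 6.23% and 6.93% of all genes, and the adjusted test called 0 (0%).

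Cyp27a1 ran the other way, with levels of 1.07, 0.40, 0.88, 0.18, -0.45, 0.32 and -0.49 in the same order of pups. Its r was -0.80 (exact permutation p = 0.0369, adjusted p = 0.393) and its rho -0.86 (exact permutation p = 0.0238, adjusted p = 0.559), and r was -0.91 without the same 2 pups. Cyp7a1 had an r of -0.24, which became -0.89 over the 5 remaining pups, so that it rested on which pups were included. The other 7 genes had r between -0.65 and 0.37 with exact permutation p of 0.103 or more. No r was taken over all 15 pups, since glucose defined the KO groups and the hypoglycemic KO pups (9 to 33 mg/dl) lay apart from the other pups (44 to 72 mg/dl).

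**Figure D2:**
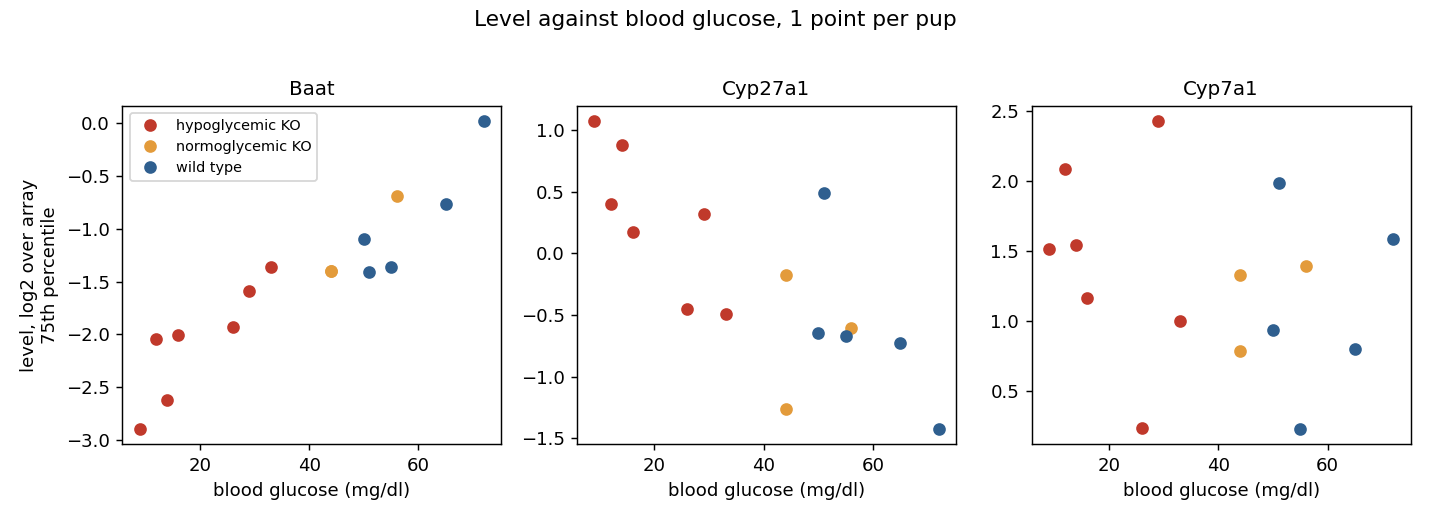
Level (y axis, log2 over the array's 75th percentile) of Baat, Cyp27a1 and Cyp7a1 against blood glucose (x axis, mg/dl), 1 point per pup, in hypoglycemic KO, normoglycemic KO and wild-type pups. Baat is higher and Cyp27a1 lower in hypoglycemic KO pups with more glucose, with an r of 0.87 and -0.80 over 7 pups.

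A wider list of 49 genes of bile acid synthesis, transport, regulation and detoxification gave 46 measured genes. This list, too, was chosen with earlier results of these data known, so its counts are a description. Ch25h and Slc10a2 were not well above background on enough arrays, and Ugt1a1 was not found by that symbol. In hypoglycemic KO against wild type, 15 of the 46 were lower and 5 higher at an unadjusted p under 0.05 (against 8.97% and 9.69% of all genes), and 0 passed the adjusted limma test. The median difference was -0.05 over the 46 genes. By role, 5 of 12 synthesis, 4 of 15 transport, 4 of 16 regulator and 2 of 3 detoxification genes were lower, and 2 transport and 3 regulator genes were higher. In normoglycemic KO against wild type 2 were lower and 0 higher (against 1.72% and 3.07% of all genes), with a median of -0.10. In hypoglycemic against normoglycemic KO 8 were lower and 8 higher (against 9.97% and 9.36% of all genes), with a median of 0.04. The adjusted test called 0 in both.

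Among the synthesis genes, Akr1c14, a 3-alpha-hydroxysteroid dehydrogenase, differed by -1.35 between hypoglycemic KO and wild type (limma adjusted p = 0.0933), by 0.21 between normoglycemic KO and wild type (adjusted p = 0.991) and by -1.56 between the KO groups (adjusted p = 0.0956). Its hypoglycemic KO levels were -0.42 to 0.65 with a median of 0.04. They all lay below the normoglycemic KO levels of 1.45, 1.93 and 1.41, as in 3.96% of all genes. Wild type stood at 0.61, 2.92, 0.93, 0.84 and 1.64. Hsd3b7, which acts on the steroid ring after Cyp7a1, and Amacr, a racemase of the side-chain steps, differed from wild type by -0.45 (adjusted p = 0.124) and -0.45 (adjusted p = 0.113) in hypoglycemic KO. Without the library labelled hypoglycemic KO replicate 2 the Amacr difference was -0.53 (adjusted p = 0.0471). Cyp7b1, an oxysterol hydroxylase of the alternative route, differed by -0.13 (adjusted p = 0.599).

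Among the transporters, Slc51b had the largest difference between the KO groups of the named pathway genes. Slc51b is a subunit of the basolateral exporter that carries bile acids out of cells into blood. Its hypoglycemic KO levels ranged from -5.10 to -1.32 with a median of -3.11. All were below the normoglycemic KO levels of 0.27, 0.67 and -0.63, as in 3.96% of all genes. Its wild-type levels were -0.51, -0.01, -1.35, -0.80 and -0.07. It was well above background on 6 of the 7 hypoglycemic KO arrays and on all the others. The difference was -2.36 between hypoglycemic KO and wild type (limma adjusted p = 0.0991) and -3.01 between the KO groups (adjusted p = 0.0882). Markers of small intestine epithelium (4 of 6 measured, Cdx2 and Slc10a2 not above background) ranged in mean level from -3.29 to -1.84 in hypoglycemic KO, from -1.92 to -1.49 in normoglycemic KO and from -2.91 to -1.72 in wild type. Their group means were -2.53 in hypoglycemic KO, -1.76 in normoglycemic KO and -2.22 in wild type, and their part in the Slc51b result was not tested. Atp8b1, a phospholipid flippase of the canalicular membrane, differed by -0.81 (adjusted p = 0.101) between hypoglycemic KO and wild type. Slco1b2, an uptake transporter, differed by -0.87 (adjusted p = 0.145).

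Of the exporters Abcc2, Abcc3 and Abcb4, the difference between hypoglycemic KO and wild type was 0.24 for Abcc2, -0.02 for Abcc3 and -0.04 for Abcb4 (limma adjusted p of 0.37, 0.955 and 0.86). The sterol exporter subunits Abcg5 and Abcg8 were the transporters with the smallest p in normoglycemic KO against wild type. Abcg5 had levels of 1.79, 1.19 and 2.74 in normoglycemic KO, below the wild-type levels of 3.26, 3.50, 3.73, 3.98 and 3.59 (difference -1.70, adjusted p = 0.965). On the lower side 1.54% of all genes separated these groups. Abcg8 had a difference of -1.67 there (adjusted p = 0.965). In hypoglycemic KO they differed from wild type by -1.02 (adjusted p = 0.193) and -0.71 (adjusted p = 0.415).

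Among the regulators, the bile acid receptor Nr1h4 differed from wild type by 0.04 in hypoglycemic KO (limma adjusted p = 0.896). Nr5a2 and Hnf4a, nuclear receptors that drive the synthesis genes, each differed by 0.41 (adjusted p = 0.201 and 0.159). Between hypoglycemic and normoglycemic KO they differed by 0.74 (adjusted p = 0.0975, without overlap) and 0.52 (adjusted p = 0.133). Of all genes, 5.07% separated the KO groups without overlap on the higher side and 3.96% on the lower side. Fgfr4, the hepatic receptor for the gut hormone Fgf15, differed by -0.59 from wild type (adjusted p = 0.12) and by -0.80 from normoglycemic KO (adjusted p = 0.0958, without overlap), and its co-receptor Klb by 0.23 from wild type (adjusted p = 0.545). Ppargc1a, a coactivator of the fasting response, had a difference of 0.78 in hypoglycemic KO (adjusted p = 0.357) and of -1.16 in normoglycemic KO (adjusted p = 0.965), and of 1.93 between hypoglycemic and normoglycemic KO (adjusted p = 0.0976). Sult2a8, a bile acid sulfotransferase, differed by -0.93 in hypoglycemic KO (adjusted p = 0.113).

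**Figure D3:**
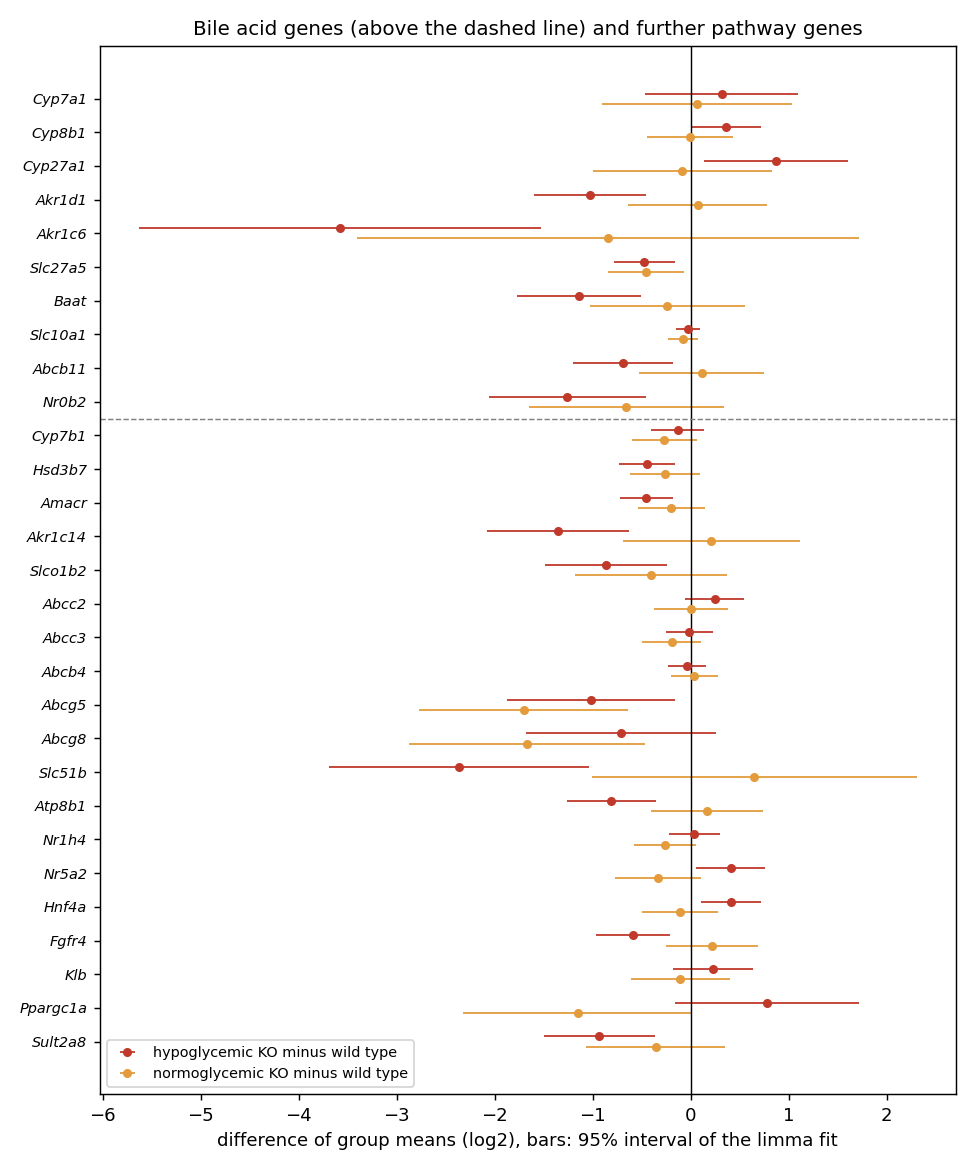
Difference of group means (x axis, log2) with the 95% interval of the limma fit for hypoglycemic KO minus wild type and normoglycemic KO minus wild type, for the 10 bile acid genes (above the dashed line) and the named pathway genes (below it). The hypoglycemic KO points for Akr1c6 (-3.58) and Slc51b (-2.36) lie farthest from 0.

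The Akr1c family was followed through its 7 kept probes. All 7 averaged lower in hypoglycemic KO than in wild type, with differences of -3.58 for Akr1c6, -3.52 for Akr1c20, -1.39 for Akr1c18, -1.38 for Akr1c19, -1.35 for Akr1c14, -0.81 for Akr1c13 and -0.59 for Akr1c12. The limma adjusted p lay between 0.0933 and 0.184. In normoglycemic KO the differences from wild type ran from -0.85 to 0.52, with adjusted p of 0.978 or more. Akr1c21 and a second Akr1c20 probe were not well above background on any array. Akr1c6 and Akr1c20, the pair whose probes are printed above, differed from wild type by nearly the same amount in both KO groups, -0.85 and -0.84 in normoglycemic KO. Whether these probes report the paralogs separately was not tested.

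**Figure D4:**
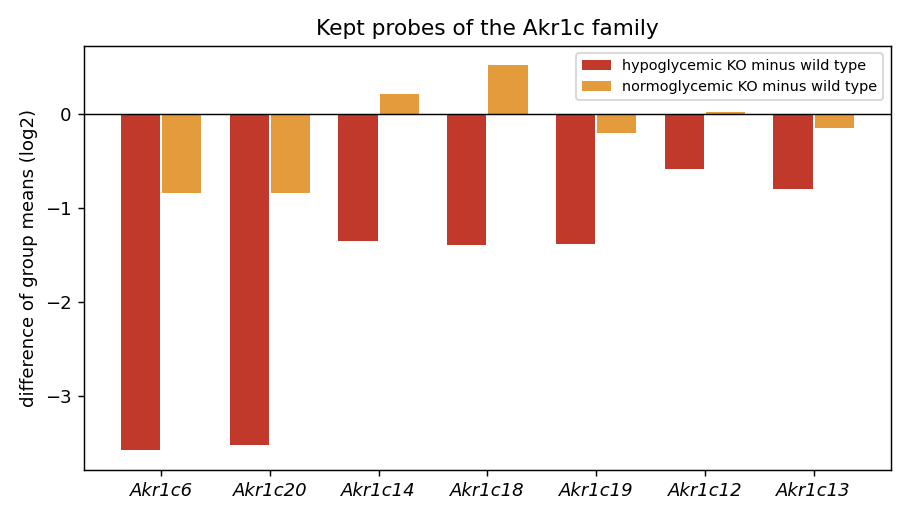
Difference of group means (y axis, log2) for the 7 kept Akr1c probes, hypoglycemic KO minus wild type beside normoglycemic KO minus wild type. All 7 hypoglycemic KO bars lie below 0, from -0.59 for Akr1c12 to -3.58 for Akr1c6, and none passed the adjusted test.

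The genes whose levels ran most like those of 3 members over the 15 arrays were taken from 13819 named genes that were well above background on all arrays. For Akr1c6 they were Ugt2b1 (r = 0.97), F5 (r = 0.95) and Vmn1r65 (r = 0.95). Nr0b2 was most like Ggct (r = 0.94), Sephs1 (r = 0.91) and Dnajc3 (r = 0.90), and Cyp7a1 was most like ND1 (r = 0.89), Cpm (r = 0.86) and Mettl6 (r = 0.83). These are the highest of many correlations, over arrays that share their group differences and slides, and are given as a description.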

How the data were processed

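Liver RNA of 15 pups was measured on Agilent 1-colour arrays (1 array per pup), and the labels gave groups and blood glucose. Agilent Feature Extraction 10.10 (per the submitters' processing notes) produced the deposited intensity values, which are background-subtracted within each array. The log2 values of the authors' deposited table (40048 probes), made with limma per the submitters' processing notes, served as an alternative. Per the file headers, spot flags are other values, 0 or 1, and were used to leave out flagged spots.

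Levels are log2(gProcessedSignal) minus the 75th percentile of all non-control spots on that array. Spots of 1 probe were averaged, a probe was kept if 3 or more of the 15 arrays had it well above background (41153 probes), and the brightest probe stood for a gene. One limma 3.58.1 model (R 4.3.3) with 3 group means was fitted over all 27554 genes, with 12 residual and 1.84 prior degrees of freedom, and p-values were adjusted by Benjamini-Hochberg over all of them (threshold 0.05). Blood glucose was added to this model as 1 slope shared by the groups, and a slope was also fitted in hypoglycemic KO alone. The fits were tested on simulated data. Correlations used exact permutation. Files were read and figures drawn in Python 3.11.15 (pandas 2.3.3, matplotlib 3.10.9, scipy 1.17.1).

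Named are all 10 members, 12 further pathway genes whatever their result, those with the 6 smallest p in hypoglycemic KO against wild type and the 3 smallest in each other comparison, and 3 like genes for each of 3 members. The members and lists were chosen with earlier results of these data known. The separate pups are the replicates, and the number of arrays limits the precision. Replicate numbers are those of the titles. Same-numbered libraries correlated in their deviations from the group means at 0.23, 0.32 and 0.12 between normoglycemic KO and wild type, over 0.1 in all 3 pairs, but at -0.17 to 0.27 between hypoglycemic KO and wild type and at -0.15 to 0.16 between the KO groups. Alternatives covered scaling, background correction, filters, probes, slide, replicate block, acinar-high libraries and each library left out.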

Additional observations from a re-analysis of the deposited data

Results flagged for a closer look

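Among the members, Abcb11 stood out because its levels lay on opposite sides of the wild-type mean in the KO groups. Of the further pathway genes, Akr1c14 and Atp8b1 met the same rule in the same direction, and Nr5a2 met it the other way round. The share of all genes that meet the rule is not given here, so the pattern is a description. The Abcb11 values were as follows. All 7 hypoglycemic KO livers were below it (difference -0.69, limma adjusted p = 0.154), and all 3 normoglycemic KO livers were above it (difference 0.11, adjusted p = 0.997). The difference between hypoglycemic and normoglycemic KO, tested directly, was -0.80 (adjusted p = 0.153). In 24 sets of a gene's levels in 1 group, 0 held a sample far from the others by a Dixon test, of which chance flags about 1 in 20. The nearest to that limit was Nr0b2 in hypoglycemic KO, with a ratio of 0.565 just under the critical value. There the library labelled hypoglycemic KO replicate 2, whose Mirg level goes against its label, stood at 0.53 and the nearest other at -1.04.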

How the results depend on the processing

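Of 2508 values of 96 results under 33 alternatives, 2387 kept their direction and side of the threshold, 84 changed sign, 21 gained a call and 16 counts moved. The differences between hypoglycemic KO and wild type kept their sign in every alternative run for Cyp8b1, Cyp27a1, Akr1d1, Akr1c6, Baat, Slc27a5, Abcb11 and Nr0b2. Scaling moved the median of all genes by less than 0.1. The counts over all genes differed between settings. In hypoglycemic KO against wild type 5 genes were called, against 4 with quantile normalization alone, 70 with normexp and quantile normalization and 50 with the deposited values, and between the KO groups 15, 17, 85 and 30. The cause was not tested.

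The glucose slope of Baat was called, giving 1 member, with quantile normalization (limma adjusted p = 0.0375), normexp (0.0201) and the deposited values (0.0307). It was also called with the filter on all arrays (0.024) and eBayes with trend and robust settings (0.0198). How many of all genes these settings called for the slope is not given here. A general rise in calls therefore cannot be told apart from a result about Baat. Slc51b was the 1 pathway gene called between the KO groups with normexp (adjusted p = 0.0494). Leaving out each library gave 0 to 1 called members in hypoglycemic KO against wild type (Nr0b2 without the library labelled hypoglycemic KO replicate 2, Baat without hypoglycemic KO replicate 4), 0 to 0 in the other group comparisons, and 0 to 1 for the slope (Baat without hypoglycemic KO replicate 1, 3 or 7). For the further pathway genes it gave 0 to 3 in hypoglycemic KO against wild type (3 without wild type replicate 1 or hypoglycemic KO replicate 4, 1 without replicate 2). It gave 0 to 7 between the KO groups (7 without hypoglycemic KO replicate 4, 1 without wild type replicate 2) and 0 to 0 in normoglycemic KO. Leaving out 1 library also changed the calls over all genes. In hypoglycemic KO against wild type these went from 5 to 138 without the library labelled hypoglycemic KO replicate 2, and to 1 without wild type replicate 2. The counts over all genes in the other fits are not given here, so the pathway counts cannot be set against them. With 1 library left out, the median of the 10 members ran from -0.66 to -0.47 in hypoglycemic KO against wild type. It ran from -0.13 to -0.01 in normoglycemic KO against wild type and from -0.48 to -0.22 between the KO groups. Over all 31 alternatives these ranges were -0.77 to -0.46, -0.27 to -0.01 and -0.48 to -0.06, in the same order.

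Values near 0 changed sign as follows. In hypoglycemic KO against wild type Slc10a1 was 0.010 with quantile normalization, 0.037 with normexp, 0.032 with the deposited values, 0.035 within slide 1 and 0.0059 by its other probe. Within slide 1 Cyp7a1 was -0.34, Abcc3 0.043 and Abcb4 0.081, and Nr1h4 was -0.0057 within slide 2 and -0.083 without the 3 libraries highest in acinar markers. In normoglycemic KO against wild type Cyp8b1 was 0.013 with normexp, 0.00023 with the deposited values, 0.034 with the slide as a block and 0.14 within slide 1. There Cyp7a1 was -0.071 with the slide block and -0.42 within slide 1, Akr1d1 -0.091 and -0.18, Cyp27a1 0.078 within slide 1, Akr1c6 0.24 within slide 2, and Slc10a1 0.14 as the mean of its probes and 0.36 by the other probe. Between the KO groups Slc10a1 was -0.15 as the mean of its probes and -0.36 by the other probe, and Slc27a5 was 0.0043 with the slide block and 0.14 within slide 1.

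Slopes within groups turned for Slc10a1 (0.0017 as the mean of its probes, 0.030 by the other probe), for Slc27a5 (-0.043 with the slide row as a block) and, without the 3 acinar-high libraries, for Cyp8b1 (-0.033) and Akr1c6 (-0.37). Slopes within hypoglycemic KO turned for Slc27a5 (0.023 as the mean of its probes, 0.056 with the slide block, 0.058 without the acinar-high libraries), Akr1d1 (0.076 with the slide block, 0.019 without those libraries) and Slc10a1 (0.0051 by its other probe). Without the 2 pups farthest in glucose, r turned for Cyp8b1 (-0.011), Akr1d1 (0.026), Slc27a5 (0.097) and Nr0b2 (0.098), and the rho of Slc27a5 was 0.14. The other probes and the counts without the libraries numbered 2 were chosen after seeing the data. Why these values turned was not tested.

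With the replicate number as a block, Cyp7a1 (-0.20), Cyp8b1 (0.061) and Akr1d1 (-0.046) in normoglycemic KO against wild type and Slc27a5 between the KO groups (0.079) changed sign. In hypoglycemic KO against wild type the block gave -3.06 for Akr1c6 (adjusted p = 0.0843) and -1.26 for Baat. It called 0 members and changed no call.

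Leaving out 1 library changed the sign of some values near 0. In hypoglycemic KO against wild type the range was -0.11 to 0.046 for Abcc3, -0.045 to 0.095 for Nr1h4 and -0.090 to 0.0094 for Abcb4. In normoglycemic KO against wild type it was -0.34 to 0.21 for Cyp27a1, -1.27 to 0.024 for Akr1c6, -0.057 to 0.081 for Cyp8b1, -0.068 to 0.22 for Akr1d1 and -0.16 to 0.28 for Cyp7a1, and between the KO groups -0.094 to 0.078 for Slc27a5. Slopes within groups ran from -0.17 to 0.043 for Cyp7a1, -0.13 to 0.82 for Akr1c6, -0.029 to 0.087 for Cyp8b1 and -0.011 to 0.060 for Slc27a5, and within hypoglycemic KO from -0.081 to 0.058 for Slc27a5 and from -0.30 to 0.095 for Akr1d1.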
